A study of Mus musculus with 24 samples.

Results

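The STAT transcription factors and the JAK kinases that switch them on were followed as transcripts in mouse embryonic fibroblasts with and without the kinase LKB1. The 9 genes were taken by name: the STAT genes Stat2, Stat3, Stat4, Stat5a, Stat5b and Stat6, and the kinase genes Jak1, Jak2 and Tyk2. They are 9 of the 55471 genes in the count tables. Of the 9, 8 had enough reads to be tested, and Stat4 did not.

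Cytokines of the interleukin-6, interferon, growth hormone and common gamma chain families bind receptors that have no kinase of their own. JAK kinases attached to the receptor tails phosphorylate the receptor and then a STAT protein, which pairs up, enters the nucleus and binds DNA. STAT3 is the main STAT of interleukin-6 type cytokines, the STAT5 proteins serve growth hormone, prolactin and interleukin-2 type signals, STAT6 serves interleukin-4, and STAT2 works with IRF9 in the interferon complex. Fibroblasts carry many of these receptors, and the amount of STAT or JAK mRNA says nothing by itself about phosphorylation.

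RNA was sequenced from 24 libraries in 8 groups of 3. The cells were 3T3-immortalised mouse embryonic fibroblasts (MEFs) of 4 genotypes: wild type, Lkb1-/- (Lkb1 is the gene Stk11), and the Lkb1/Crtc2 double-knockout clones A1 and A2. Both clones were grown from single CRISPR-edited cells of the Lkb1-/- line, so each double-knockout group is 1 clone and the lack of LKB1 is shared by 3 of the 4 genotypes. Wild type and Lkb1-/- are likewise established lines, so differences of line and of LKB1 cannot be told apart. CRTC2 is a coactivator of the transcription factor CREB that LKB1-dependent kinases hold in the cytoplasm. Each genotype was left untreated or given IL-1β, an inflammatory cytokine whose own receptor does not use JAK kinases, at 0.1 ng/mL for 6 h. The labels number the 3 libraries of each group but do not say that they came from separate cultures, so the p-values measure the spread between these libraries, which may be technical. In bulk RNA, fewer cells that express a gene and less RNA per cell cannot be told apart.

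The libraries held between 38842901 and 48594394 counts on genes, with a median of 42431965. Levels are given as CPM, the count of a gene divided by the scaled library size in megareads. Without IL-1β, Stk11 was measured at 86.0 ± 1.68 CPM in wild type (SD, n = 3) and 17.3 ± 1.24 in Lkb1-/-, and Crtc2 was 81.1 ± 1.80 CPM in Lkb1-/- against 42.9 ± 2.11 in A1 and 49.8 ± 0.864 in A2. Summed over 10 fibroblast markers the level was 5720 to 9930 CPM, against 2.49 to 8.96 over 8 leukocyte, 0.370 to 3.85 over 4 endothelial and 0.110 to 0.447 over 4 epithelial markers. Col1a1, Vim and Fn1 made up most of the fibroblast sum. Thy1 and Lum were at or near 0 in all groups, with group means of at most 0.0368 and 0.160 CPM, and Dcn (0.411 CPM) and Pdgfra (4.58) were low in untreated wild type against 218 and 342 in Lkb1-/-. The collagen markers Col1a2 and Col1a1 went the other way, with Col1a2 at 780 CPM in untreated wild type against 63.0 in Lkb1-/- and Col1a1 at 2378 against 1485. The collagen marker Col3a1 did not, at 478.5 ± 104.6 CPM in untreated wild type against 657.8 ± 197.8 in Lkb1-/-. The fibroblast label thus had some of its markers and lacked others, and the part of these genotype differences in the results was not tested. The low sums of the other markers differed between genotypes, with 2.49 to 5.13 CPM for leukocyte markers in wild type and 4.36 to 8.96 elsewhere, and their part in the results was not tested. The libraries numbered 1 stood apart from the others in all 8 groups. On the first component of the differences from the group means, which held 29.7% of their variance, the 8 libraries numbered 1 lay on one side and the other 16 on the other. This touched the genes of interest directly: Stat3, Stat5a, Stat5b, Jak1 and Jak2 were lowest in library 1 in 8 of 8 groups. Results are therefore also given without these 8 libraries.

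The genes sit at 6 places in the mouse genome (GRCm38). Stat2 (chr10:128270559-128292849, plus strand) and Stat6 (chr10:127642986-127660957, plus strand) are close together on chromosome 10. Stat5b (chr11:100780731-100850724, minus), Stat5a (chr11:100859351-100885169, plus) and Stat3 (chr11:100885098-100939540, minus) form a run on chromosome 11, and the annotated 3′ ends of Stat5a and Stat3 overlap on opposite strands. Stat4 is at chr1:51987148-52107189 (plus), Jak1 at chr4:101152367-101265282 (minus), Jak2 at chr19:29251828-29313080 (plus) and Tyk2 at chr9:21104068-21131243 (minus). The counts used here were of the strand that 95.5 to 96.0% of the assigned read pairs matched.

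Stat5a and Stat5b are recent copies of one gene, which bears on every value of the pair. Of the 50-base words in their annotated transcripts, 8.21% of those of Stat5a and 11% of those of Stat5b occur in the other gene. The longest identical stretch of their coding sequences is 324 bases, from coding base 571 to 894 in both, and its first 150 bases (GENCODE M21 transcripts) are shown because a read from here can belong to either gene.
Stat5a and Stat5b: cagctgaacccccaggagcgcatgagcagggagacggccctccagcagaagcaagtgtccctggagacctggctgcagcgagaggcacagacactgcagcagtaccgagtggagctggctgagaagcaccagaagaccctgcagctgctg
Reads that matched both genes equally were not assigned by the counting, so the level of either gene is uncertain by an amount that was not measured. Stat6, Jak1 and Jak2 shared no such word with another gene.

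Promoter sequence was available for all 9 genes (RefSeq, GRCm38.p6, 12 windows from 250 bases before to 50 after a transcription start). They were searched on both strands for the CREB site TGACGTCA, its shorter core TGACG, which lies inside it, the STAT site TTCNNNGAA and the interferon response element (TTTC, any 2 bases, TTTC). The 2 promoters shown are the members' matches to a CREB site and, for Stat2, to the interferon element, with the match in capitals and the 250 bases before the start printed 5′ to 3′.
Stat2 (chr10:128270248-128270497, plus strand): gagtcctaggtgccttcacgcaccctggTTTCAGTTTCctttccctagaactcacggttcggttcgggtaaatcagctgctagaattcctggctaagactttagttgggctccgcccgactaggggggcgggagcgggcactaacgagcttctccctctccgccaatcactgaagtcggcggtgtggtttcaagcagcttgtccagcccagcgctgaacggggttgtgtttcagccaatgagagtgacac
Jak1 (chr4:101265224-101265473, minus strand): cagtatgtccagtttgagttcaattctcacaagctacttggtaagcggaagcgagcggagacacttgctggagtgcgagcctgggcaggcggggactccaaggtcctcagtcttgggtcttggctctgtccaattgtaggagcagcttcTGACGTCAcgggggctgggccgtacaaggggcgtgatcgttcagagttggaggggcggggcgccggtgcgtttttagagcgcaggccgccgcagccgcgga
The Stat2 element begins 222 bases before the start and the Jak1 CREB site 101 bases before it. A second Stat4 window also held the interferon element, and the core lay in windows of Stat4, Stat5a, Stat6 and Jak1. Over all 32851 windows of the RefSeq table, 1.79% held the full CREB site, 20.8% the core, 8.30% the STAT site and 3.44% the interferon element. None of the 12 windows held the STAT site. A match describes letters in these windows and is not evidence of binding.

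Per kilobase of exon, Jak1 was the most abundant of the 9 transcripts in every group. Its level in untreated cells was 52.4 ± 3.20 CPM per kilobase in wild type (SD, n = 3), 40.9 ± 3.34 in Lkb1-/-, 40.3 ± 3.47 in A1 and 33.5 ± 5.78 in A2. Stat3 and Stat6 came next. Stat3 stood above Stat6 in untreated wild type (17.0 ± 1.48 against 15.4 ± 0.110) and Lkb1-/- (22.3 ± 2.19 against 14.0 ± 0.774). In A1 the order of the 2 turned, with Stat6 at 18.3 ± 0.459 and Stat3 at 14.7 ± 1.39, and in A2 their libraries overlapped. The middle of the order held Jak2, Stat5a, Stat5b and Stat2. Their libraries overlapped with those of a neighbour in every group except Jak2 in untreated Lkb1-/- and Stat5a in untreated A1. Tyk2, which partners JAK1 at interferon receptors, was the lowest of the tested genes at 2.71 to 4.28 CPM per kilobase over the 8 group means. Stat4, a STAT of T and natural killer cells, had at most 4 reads in any library and 0 in all 6 wild-type libraries.

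**Figure D1:**
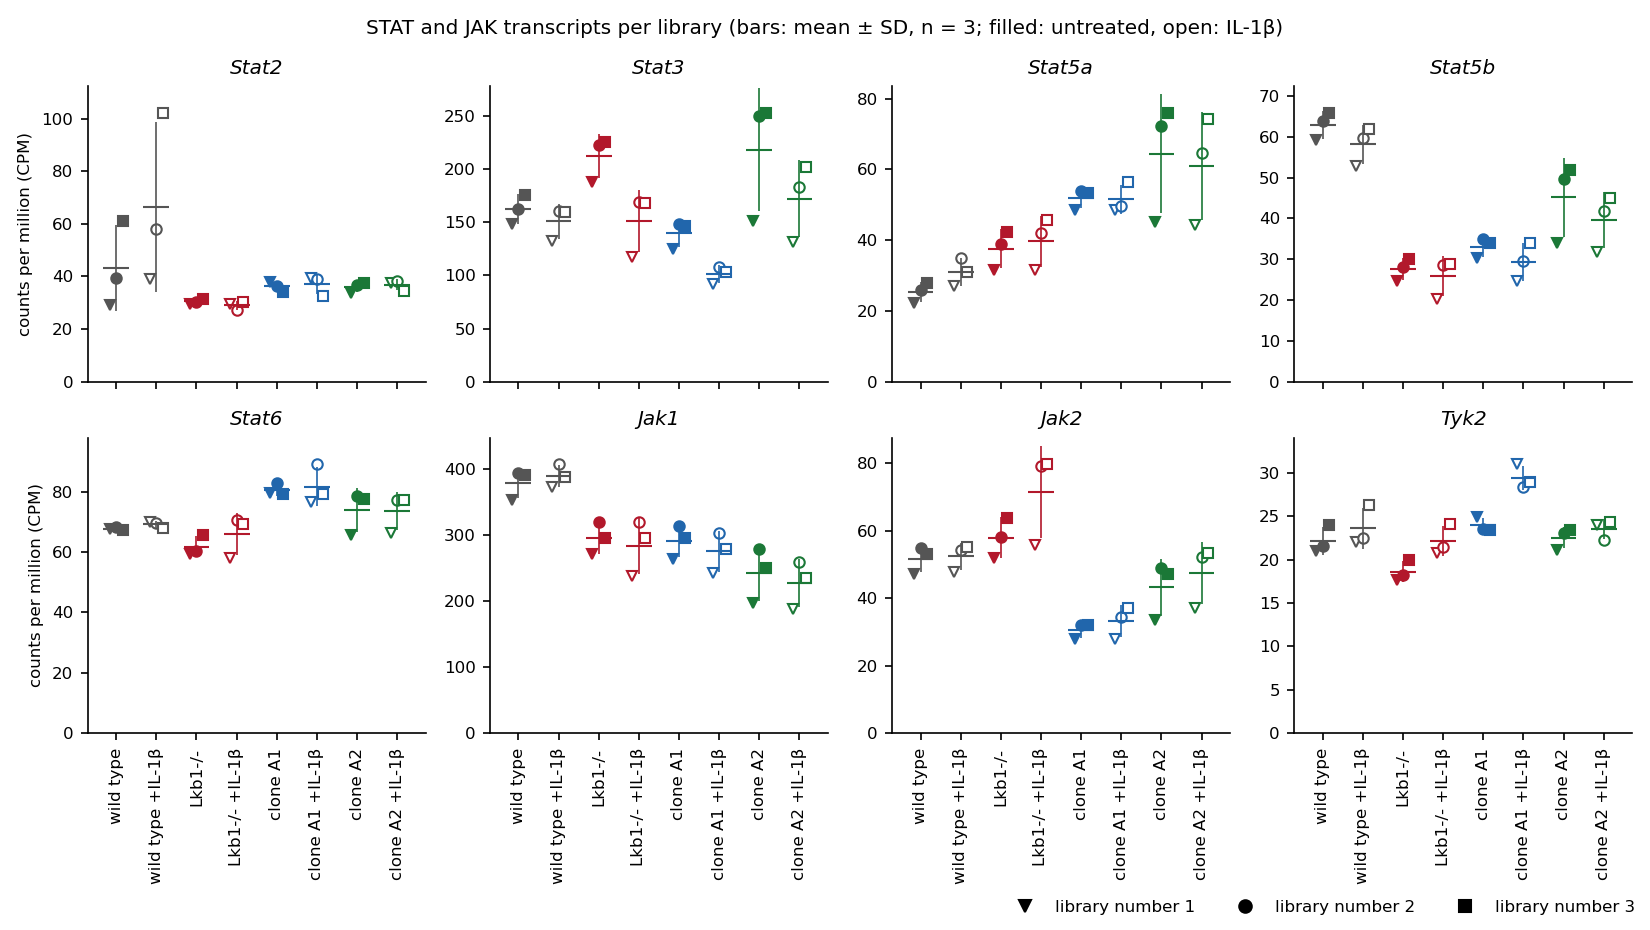
CPM of the 8 tested STAT and JAK genes in each of the 24 libraries, by genotype and treatment; marker shape gives the library number, filled markers are untreated and open markers IL-1β, and bars are mean ± SD (n = 3). Stat5b is higher in the 6 wild-type libraries (52.7 to 65.9) than in the 6 Lkb1-/- libraries (20.3 to 30.2), and Stat2 reaches 102 in 1 wild-type library.

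The first comparison set Lkb1-/- against wild type, where line and loss of LKB1 cannot be told apart. In untreated cells Stat5b, Jak1 and Tyk2 were lower and Stat5a was higher in Lkb1-/- than in wild type, which makes 4 of 8 tested genes, while 55.9% of all 17522 tested genes were called (30.1% higher and 25.8% lower). The median log2 fold change of the 8 was -0.19, and that of all genes 0.04. With IL-1β, Stat5b, Jak1 and Stat2 were lower and Jak2 was higher, again 4 of 8, against 57.4% of all genes (30.2% higher and 27.1% lower). The share of genes called was no larger among the 8 than in the transcriptome as a whole.

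Stat5b, a mediator of growth hormone signals, differed most in untreated cells. Its 3 untreated wild-type libraries held 59.2, 63.9 and 65.9 CPM and the Lkb1-/- libraries 24.7, 28.1 and 30.2. With IL-1β the values were 52.7, 59.8 and 62.0 against 20.3, 28.6 and 28.7. The groups did not overlap in either condition. The level in Lkb1-/- was 0.439 times that of wild type without IL-1β (log2 -1.19 ± 0.16 SE, edgeR adjusted p = 1.7e-06) and 0.445 times with it (-1.17 ± 0.16, adjusted p = 2.1e-06).

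Its copy Stat5a went the other way. Untreated wild-type libraries held 22.3, 25.9 and 27.9 CPM, and Lkb1-/- libraries 31.6, 38.9 and 42.3. Every Lkb1-/- library was above every wild-type library, by 1.48 times on the fitted scale (log2 0.57 ± 0.19, edgeR adjusted p = 0.014). The call was lost without wild-type library 1 (adjusted p = 0.069) or without Lkb1-/- library 3 (0.085). With IL-1β the groups overlapped, at 27.1, 34.8 and 31.1 against 31.6, 41.9 and 45.6 (log2 0.36 ± 0.19, adjusted p = 0.11); in the fit that pairs libraries of the same number the difference was called (0.35, adjusted p = 0.0040), as it was without Lkb1-/- library 1 (0.50, 0.039), with upper quartile scaling (0.019), without a filter (0.00027), with at least 10 counts in every library (0.037) and in a fit of its own groups (0.037).

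The make-up of the STAT5 pair was therefore different in the 2 genotypes. Stat5a was 23.8% ± 1.09 (SD, n = 3) of the summed Stat5a and Stat5b level per kilobase in untreated wild type and 51.3% ± 1.27 in Lkb1-/-. Both clones were at the Lkb1-/- side, with 54.9% ± 0.525 in A1 and 52.3% ± 1.39 in A2. Under IL-1β the shares were 29.2% ± 1.69, 54.4% ± 1.05, 57.8% ± 2.36 and 54.2% ± 2.13 in the same order. All 6 wild-type libraries lay between 22.6 and 31.1%, and all 18 others between 49.8 and 60.5%. An exact permutation test of 3 libraries against 3 cannot give a two-sided p below 0.10, so none is given. The sum of the pair was lower in untreated Lkb1-/- (10.3 ± 1.26 CPM per kilobase) than in wild type (14.9 ± 1.03), and in A2 it was 17.2 ± 4.12.

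**Figure D2:**
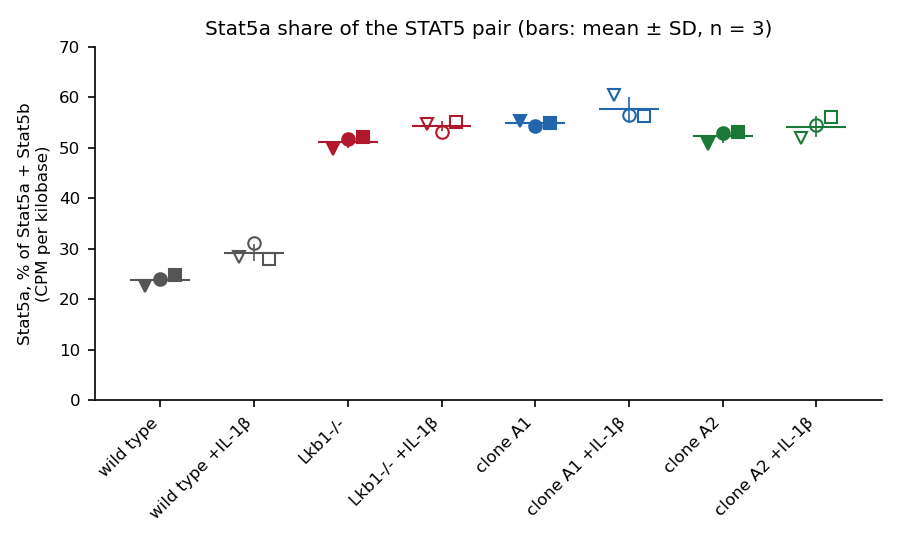
Stat5a as a percentage of Stat5a plus Stat5b, from CPM per kilobase of exon, in each of the 24 libraries; marker shape is the library number, open markers are IL-1β and bars are mean ± SD (n = 3). Wild-type libraries sit between 22.6 and 31.1% and all libraries without LKB1 between 49.8 and 60.5%.

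Among the kinases, Jak1, which serves most receptors of the pathway, was lower in Lkb1-/- than in wild type. It held 352, 394 and 391 CPM in untreated wild type and 271, 319 and 296 in Lkb1-/-, and with IL-1β 372, 407 and 388 against 237, 319.6 and 295. The groups did not overlap in either condition. The log2 differences were -0.36 ± 0.13 (edgeR adjusted p = 0.023) and -0.46 ± 0.13 (0.0049), and the first was lost without wild-type library 2 (0.069). Tyk2 was lower in untreated Lkb1-/- (17.6, 18.2 and 19.97 CPM) than in wild type (21.0, 21.6 and 24.02), without overlap (log2 -0.25 ± 0.08, adjusted p = 0.011). With upper quartile scaling (adjusted p = 0.062) or no filter on low counts (0.060) that call was lost. With IL-1β the Tyk2 difference was -0.09 ± 0.08 and did not pass.

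Jak2, the kinase of growth hormone, erythropoietin and many interleukin receptors, was not lower. Untreated it held 47.1, 54.7 and 53.2 CPM in wild type and 51.7, 58.0 and 63.8 in Lkb1-/-, which overlapped (log2 0.16 ± 0.16, edgeR adjusted p = 0.40). With IL-1β it held 47.8, 54.3 and 55.1 against 55.7, 79.1 and 79.6, without overlap (0.45 ± 0.16, adjusted p = 0.019). The call was lost without wild-type library 1 (0.39, adjusted p = 0.077), Lkb1-/- library 2 (0.37, 0.085) or Lkb1-/- library 3 (0.34, 0.091). Paired by number it was kept (0.43, adjusted p = 7.0e-06), as it was without the libraries numbered 1 (0.54, 1.1e-06).

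Stat3 was higher in each untreated Lkb1-/- library (188, 222 and 226 CPM) than in each wild-type library (148, 162 and 176), but the difference did not pass (log2 0.39 ± 0.18, edgeR adjusted p = 0.067). Without the libraries numbered 1 it did (0.41, adjusted p = 1.1e-05), as it did with upper quartile scaling (0.0095), with at least 10 counts in every library (0.026), without a filter (1.9e-05) and in a fit of its own groups (0.0025). With IL-1β the 2 genotypes held 132, 161 and 159.6 against 117, 169 and 168 CPM, a log2 difference of 0.00 with a 95% interval of -0.34 to 0.35. Stat6 stayed within 58.1 to 70.6 CPM over the 12 wild-type and Lkb1-/- libraries, and neither difference passed (-0.13 ± 0.08 and -0.07 ± 0.08). Without Lkb1-/- library 3 the untreated Stat6 difference passed (-0.23, edgeR adjusted p = 0.026).

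Without the libraries numbered 1, 7 of the 8 genes were called in untreated cells (59.1% of all genes) and 5 with IL-1β (60.2%). The genes added in untreated cells were Stat2 (log2 -0.70, edgeR adjusted p = 0.014), Stat3 and Jak2 (0.17, 0.014), and with IL-1β Stat5a (0.41, 0.00099).

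**Figure D3:**
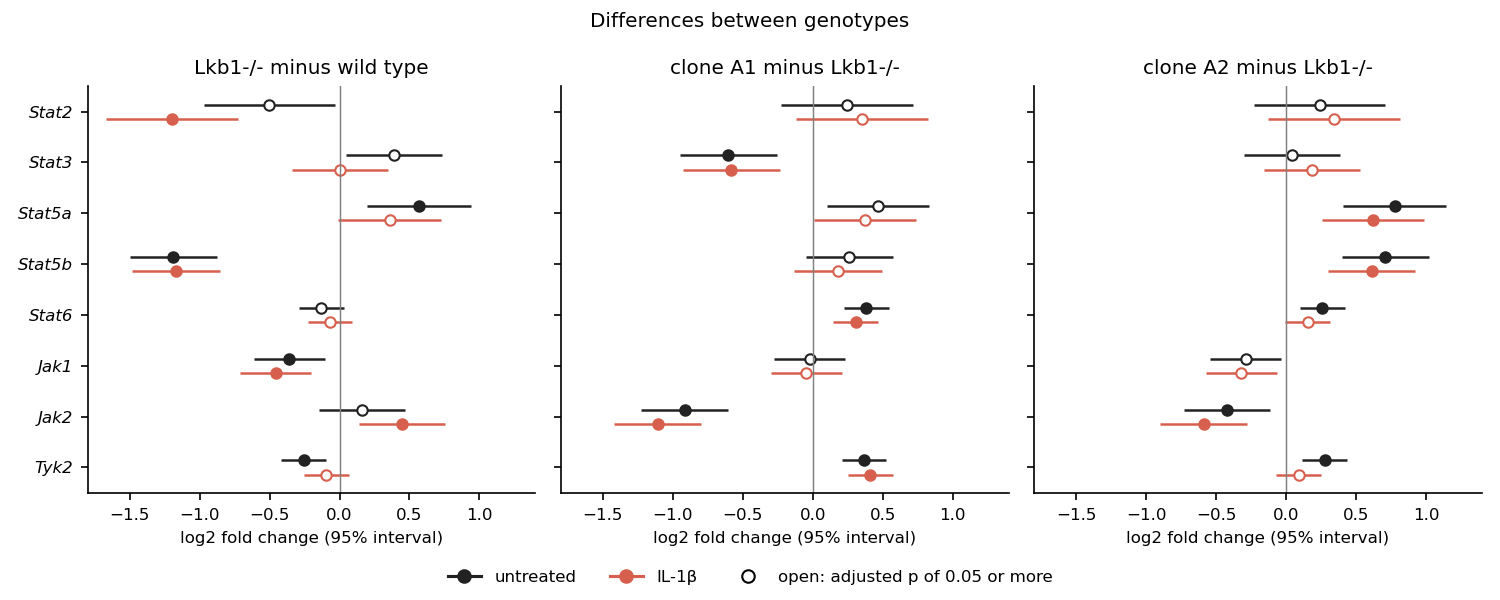
Log2 fold changes with 95% intervals for Lkb1-/- against wild type and for each double-knockout clone against Lkb1-/-, untreated (black) and with IL-1β (red); filled points passed an edgeR adjusted p of 0.05. Stat5b lies near -1.2 in both conditions in the first panel, and Jak2 is below 0 for both clones.

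Stat2, the interferon partner of IRF9, varied more between wild-type libraries than between genotypes without LKB1. Libraries 1, 2 and 3 of untreated wild type held 29.0, 39.6 and 61.2 CPM, and those with IL-1β 39.1, 58.1 and 102. The 6 Lkb1-/- libraries lay between 27.2 and 31.5 CPM, and the 12 clone libraries between 32.6 and 39.5. The untreated difference between Lkb1-/- and wild type did not pass (log2 -0.50 ± 0.24, edgeR adjusted p = 0.083) unless wild-type library 1 was left out (-0.72, 0.015), and with IL-1β it did (-1.20 ± 0.24, adjusted p = 0.00023). Without wild-type library 3 of the IL-1β group, the highest for Stat2, the second value was -0.77 (adjusted p = 0.0024).

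The known targets of the interferon complex were high in the same libraries. The mean log2 CPM of 19 interferon target genes was 1.24, 1.97 and 3.68 in untreated wild-type libraries 1, 2 and 3, and 2.61, 3.42 and 4.88 with IL-1β. In the other genotypes it was 0.19 to 1.60. In wild type, library 3 was the highest of its group for 18 of the 19 genes untreated and for 19 with IL-1β. Between Lkb1-/- and wild type 10 of the 19 were lower and 2 higher without IL-1β (25.8% and 30.1% of all genes), and 16 were lower and 1 higher with it (27.1% and 30.2%). Ifi44 fell by 4.64 on the log2 scale and Gbp2, a guanylate-binding protein gene, rose by 2.39 in untreated cells. The part of this difference between wild-type libraries in the Stat2 result was not tested; leaving out wild-type library 3 of the IL-1β group removed the Stat2 calls of A1 (log2 -0.40, edgeR adjusted p = 0.094) and A2 (-0.41, 0.087) against wild type.

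**Figure D4:**
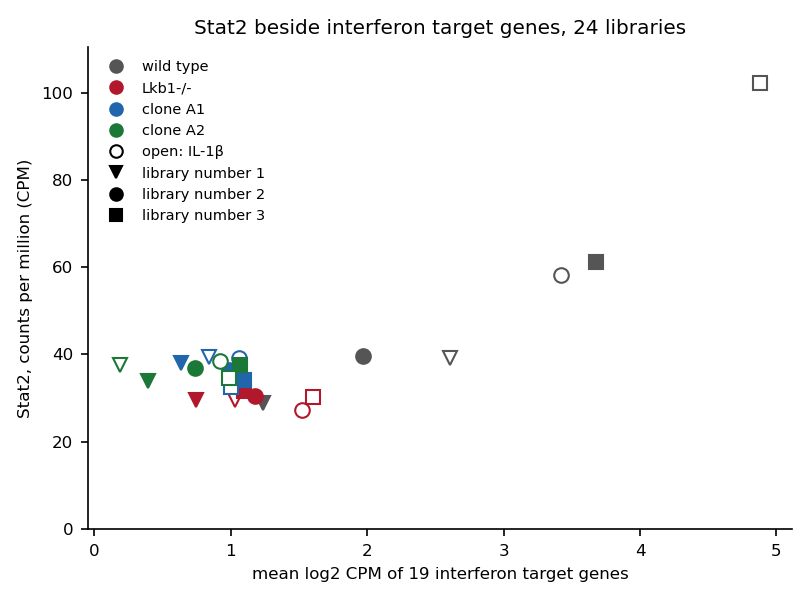
Stat2 in CPM against the mean log2 CPM of 19 interferon target genes in the 24 libraries; colour gives the genotype, open markers are IL-1β and the shape is the library number. The wild-type libraries reach 102 CPM of Stat2 at a mean of 4.88, while all libraries of the other genotypes lie below 40 CPM and at or below 1.60.

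The second comparison took CRTC2 away from cells that already lacked LKB1. In clone A1, Jak2 and Stat3 were lower and Stat6 and Tyk2 higher than in Lkb1-/-, with and without IL-1β. These 4 of 8 genes compare with 35.3% of all genes called untreated (18.9% higher and 16.4% lower) and 36.7% with IL-1β (19.4% and 17.3%). In clone A2, 5 of 8 were called untreated (32.3% of all genes, 17.1% higher and 15.1% lower) and 3 with IL-1β (32.8%, 17.1% and 15.8%). Stat5a and Stat5b were higher and Jak2 lower in both conditions, and Stat6 and Tyk2 were higher in untreated cells.

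Jak2 was the 1 gene called lower in both clones and both conditions. Untreated A1 libraries held 27.8, 32.1 and 32.1 CPM and untreated A2 libraries 33.6, 49.0 and 47.0, below the 51.7, 58.0 and 63.8 of Lkb1-/-. With IL-1β the values were 27.9, 34.3 and 37.2 in A1, 37.0, 52.1 and 53.5 in A2, and 55.7, 79.1 and 79.6 in Lkb1-/-. No clone library reached the lowest Lkb1-/- library of its condition. The log2 differences were -0.92 ± 0.16 and -1.11 ± 0.16 in A1 (edgeR adjusted p = 0.00012 and 1.4e-05) and -0.42 ± 0.16 and -0.59 ± 0.16 in A2 (0.046 and 0.0062). The untreated A2 call was lost without A2 library 1 (0.21), Lkb1-/- library 2 (0.096) or Lkb1-/- library 3 (0.15), and with counts of both strands (0.073). Genes within 1 Mb of Jak2 on chromosome 19 leaned the same way, with a median log2 difference of -0.32 in A1 and -0.36 in A2 over 19 untreated neighbours. The median over all 571 tested genes of chromosome 19 was -0.35 in A1 and -0.31 in A2. The part of either in the Jak2 result was not tested.

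Stat3 separated the 2 clones. Untreated A1 libraries held 124, 148 and 147 CPM and A2 libraries 151, 250.2 and 253, against 188, 222 and 226 in Lkb1-/-. With IL-1β A1 held 91.7, 108 and 103, A2 132, 183 and 202, and Lkb1-/- 117, 169 and 168. A1 lay below Lkb1-/- in each condition without overlap, and A2 overlapped with it. The A1 differences were -0.60 ± 0.18 (edgeR adjusted p = 0.010) and -0.58 ± 0.18 (0.013), those of A2 0.04 (95% interval -0.30 to 0.38) and 0.19 (-0.16 to 0.53). Leaving out A1 library 1 raised the A1 values to an adjusted p of 0.054 untreated and 0.057 with IL-1β, where leaving out Lkb1-/- library 2 (0.063) or 3 (0.051) did the same. The difference between the clones themselves was 0.64 ± 0.18 untreated (adjusted p = 0.0075) and 0.77 ± 0.18 with IL-1β (0.0021), higher in A2.

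The STAT5 genes rose in A2. Untreated A2 libraries held 45.05, 72.2 and 76.0 CPM of Stat5a and 34.0, 49.8 and 51.8 of Stat5b, and library 1 was the lowest for both genes. All were above the Lkb1-/- libraries, which reached 42.3 and 30.2. The log2 differences were 0.78 ± 0.19 for Stat5a (edgeR adjusted p = 0.0029) and 0.71 ± 0.16 for Stat5b (0.0016). With IL-1β they were 0.62 ± 0.19 (0.013) and 0.61 ± 0.16 (0.0051). There the Stat5a libraries overlapped (44.4, 64.6 and 74.2 CPM in A2), and the call was lost without Lkb1-/- library 1 (0.080) or A2 library 3 (0.072). Stat5b of A2 stayed below wild type, with log2 differences of -0.48 ± 0.16 untreated (0.012) and -0.56 ± 0.16 with IL-1β (0.0042). In A1 Stat5b differed from Lkb1-/- by 0.26 ± 0.16 and 0.18 ± 0.16 and Stat5a by 0.46 ± 0.19 and 0.37 ± 0.19, none of which passed. Without Lkb1-/- library 3 the untreated Stat5a value passed (0.57, 0.039), as it did with upper quartile scaling (0.023), DESeq2 (0.043) and in a fit of its own groups (0.0063). Paired by number, Stat5a was called with IL-1β (0.39, adjusted p = 0.0019), as it was in a fit of its own groups (0.39, 0.025), without a filter (0.00053) and without the libraries numbered 1 (0.28, 0.018). Genes within 1 Mb of Stat5a had a median log2 difference of 0.36 in A2 and 0.24 in A1 (67 genes, untreated). The medians over all of chromosome 11 were 0.34 and 0.29, and the part of either was not tested.

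Stat6 and Tyk2 were modestly higher in the clones. Stat6, the interleukin-4 factor, held 79.6, 82.9 and 79.2 CPM in untreated A1 and 65.5, 78.7 and 77.7 in A2, against 59.4, 60.3 and 65.7 in Lkb1-/-. A1 did not overlap with Lkb1-/-, and A2 did. The differences were 0.38 ± 0.08 (edgeR adjusted p = 0.00092) and 0.26 ± 0.08 (0.019) untreated, and 0.31 ± 0.08 (0.0052) and 0.16 ± 0.08 (0.16) with IL-1β. Tyk2 held 24.9, 23.6 and 23.4 CPM in untreated A1, 21.1, 23.1 and 23.4 in A2 and 17.6, 18.2 and 19.97 in Lkb1-/-, without overlap. It differed by 0.37 ± 0.08 (0.0013) and 0.28 ± 0.08 (0.012) untreated, and by 0.41 ± 0.08 (0.00041) and 0.09 ± 0.08 (0.43) with IL-1β. The untreated A2 calls of both genes were lost without Lkb1-/- library 2 (0.071 for Stat6 and 0.051 for Tyk2), that of Tyk2 also without a filter on low counts (0.11), and Stat6 of A2 passed with IL-1β without A2 library 1 (0.25, 0.016).

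Genes around Stat6 and Tyk2 differed in the direction of the 2 genes in some comparisons and not in others. The 70 tested genes within 1 Mb of Stat6 had a median log2 difference of 0.39 in A1 and 0.35 in A2 against Lkb1-/-, and of -0.52 in Lkb1-/- against wild type. In untreated A1 against wild type their median was -0.20, while Stat6 itself was higher (0.25, edgeR adjusted p = 0.013). Over all of chromosome 10 these medians were 0.39, 0.27 and -0.44. Around Tyk2 on chromosome 9 the median was 0.36 in A1 and 0.04 in A2 (63 genes), where that of all genes was 0.02, and over all of chromosome 9 it was 0.32 and 0.03. In untreated Lkb1-/- against wild type the neighbours of Tyk2 had a median of 0.06, while Tyk2 itself was lower there. For Stat2, 66 neighbours had a median of -0.51 in Lkb1-/- against wild type. Whether the local medians have a part in the Stat2, Stat6 and Tyk2 values was not tested. Around Stat5b the median in Lkb1-/- against wild type was 0.03, and around Jak1 it was 0.30 (7 genes). In A2 against Lkb1-/- the genes around Jak1 had medians of -0.195 untreated and -0.123 with IL-1β. Over all of chromosome 4 these were -0.158 and -0.163. Around Jak2 (19 genes) the median in Lkb1-/- against wild type was 0.381 untreated and 0.405 with IL-1β. Over all of chromosome 19 it was 0.116 and 0.0949. The part of these medians in the Jak1 and Jak2 values was not tested.

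With all libraries in one fit, Jak1 and Stat2 did not pass against Lkb1-/- in either clone. Stat2 differed by 0.25 ± 0.24 in A1 and 0.24 ± 0.24 in A2 untreated, and by 0.35 ± 0.24 and 0.34 ± 0.24 with IL-1β (edgeR adjusted p = 0.28 to 0.49). Its clone libraries nevertheless lay above all Lkb1-/- libraries. The 66 neighbours of Stat2 had medians of 0.365 in A1 and 0.326 in A2 untreated, and 0.373 and 0.323 with IL-1β. Over all of chromosome 10 the untreated medians were 0.387 and 0.268. The part of either in the Stat2 values was not tested. In a fit of the 2 groups compared, whose spread leaves out the wild-type libraries, Stat2 was called higher in A1 (0.21, edgeR adjusted p = 0.033, and 0.37, 0.019) and in A2 (0.23, 0.032, and 0.32, 0.030), and without a filter on low counts it was called with IL-1β (0.0018 in A1 and 0.0051 in A2). Jak1 held 264, 313 and 296 CPM in untreated A1, inside the Lkb1-/- range (log2 -0.02 ± 0.13). In A2 it held 197, 279 and 251 untreated and 189, 259 and 235 with IL-1β, with 95% intervals of -0.54 to -0.03 and -0.57 to -0.07 around -0.29 and -0.32 (edgeR adjusted p = 0.097 and 0.064). When libraries were paired by number both A2 differences were called (-0.30, adjusted p = 0.00021, and -0.32, 9.1e-05), as was Stat6 with IL-1β (0.16, 0.036). Jak1 of A2 also passed untreated and with IL-1β with upper quartile scaling (0.035 and 0.016), with at least 10 counts in every library (0.034 and 0.020), without a filter (0.0012 and 0.00040) and without the libraries numbered 1 (0.022 and 0.0027), and with DESeq2 under IL-1β (0.045). Against wild type, Jak1 was lower in A2, with log2 differences of -0.65 ± 0.13 untreated (edgeR adjusted p = 0.00019) and -0.78 ± 0.13 with IL-1β (2.5e-05). Without single libraries the A2 difference from Lkb1-/- passed in some fits, untreated without A2 library 2 (-0.38, 0.035) and with IL-1β without Lkb1-/- library 1 (-0.44, 0.018) or A2 library 2 (-0.40, 0.028).

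Set directly against each other, the clones differed in 3 of 8 genes untreated (32.5% of all genes, 15.8% higher in A2 and 16.7% lower) and 4 with IL-1β (30.7%, 15.1% and 15.6%). Besides Stat3, A2 was higher in Jak2 (0.50 ± 0.16 and 0.52 ± 0.16, edgeR adjusted p = 0.021 and 0.016) and Stat5b (0.45 ± 0.16 and 0.43 ± 0.16, 0.034 and 0.045), and lower in Tyk2 with IL-1β (-0.32 ± 0.08, 0.0044). For A2 against A1 with IL-1β, the 63 neighbours of Tyk2 had a median of -0.363, and all of chromosome 9 had -0.317. The part of either in the Tyk2 difference was not tested. The clones overlapped in Stat5b in both conditions and in Jak2 with IL-1β. Tyk2 with IL-1β kept its call without any 1 library (adjusted p = 0.0071 to 0.026), and the calls of Stat5b and Jak2 were lost without some. With IL-1β, pairing by number kept both (Stat5b 0.43, adjusted p = 6.9e-05, and Jak2 0.51, 2.8e-06). Stat5b no longer passed untreated without A1 library 1, 2 or 3 or A2 library 2 or 3 (log2 0.35 to 0.49, adjusted p = 0.055 to 0.12), nor with IL-1β without A1 library 1 or 2 or A2 library 2 or 3 (0.32 to 0.43, adjusted p = 0.098 to 0.19), with counts of both strands (0.059) or in a fit of its own groups (0.057). Jak2 no longer passed without A1 library 1 or A2 library 2 or 3, with adjusted p = 0.056 to 0.090 untreated (log2 0.40 to 0.44) and 0.053 to 0.090 with IL-1β (0.41 to 0.45). Without A2 library 1, untreated Stat5a passed as well (0.51, 0.020), and without A2 library 2 so did Jak1 (-0.37 and -0.38, adjusted p = 0.038 untreated and 0.042 with IL-1β). Paired by number, Jak1 (-0.28, 0.00044) and Stat6 (-0.15, 0.041) were also lower in A2 with IL-1β. Without the libraries numbered 1, the counts of called genes were 6 untreated and 5 with IL-1β for A1 against Lkb1-/- (40.2% and 41.7% of all genes), 7 and 5 for A2 against Lkb1-/- (39.2% and 38.7%) and 5 and 6 for A2 against A1 (40.7% and 38.3%). In that fit Stat3 of A2 was higher than in Lkb1-/- (0.16, edgeR adjusted p = 0.021, and 0.19, 0.0085).

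Against wild type, A1 differed in 5 of 8 genes untreated (55.4% of all genes, 30.3% higher and 25.1% lower) and 8 with IL-1β (56.9%, 30.1% and 26.9%). A2 differed in 4 untreated (60.6%, 32.7% and 27.9%) and 4 with IL-1β (60.8%, 32% and 28.8%). When the libraries numbered 1 were left out the counts were 6 and 8 in A1 (58.1% and 59.5% of all genes) and 6 and 6 in A2 (63.4% in each condition), where Stat3 (0.26, edgeR adjusted p = 0.00047) and Stat6 (0.17, 0.019) were added with IL-1β. Stat5a was higher and Stat5b and Jak1 lower in both clones and both conditions. Stat5a of untreated A1 was 2.04 times the wild-type level (log2 1.03 ± 0.19, edgeR adjusted p = 8.4e-05) and that of untreated A2 2.54 times (1.34 ± 0.19, 2.8e-06). Stat3 of A2 was higher than in untreated wild type (0.43 ± 0.18, 0.041), but its libraries overlapped and it failed to pass without wild-type library 1, 2 or 3 or A2 library 2 or 3 (0.051 to 0.21), with counts of both strands (0.081) or in a fit of its own groups (0.075). In A1, Jak1 untreated depended on A1 library 1 (0.080) and wild-type library 2 (0.053), and Stat6 on wild-type library 3 untreated (0.052) and A1 library 2 with IL-1β (0.11).

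The third comparison asked whether IL-1β changed the JAK-STAT transcripts within each genotype. With all libraries treated as independent, edgeR called 0 of 8 in wild type, where 2.26% of all genes were called (1.53% higher and 0.731% lower). It also called 0 in Lkb1-/- (4.74%, 2.65% and 2.09%), A1 (1.99%, 1.2% and 0.788%) and A2 (5.68%, 2.81% and 2.86%). At an unadjusted p of 0.05 there were 1 in wild type (Stat2), 2 in Lkb1-/- and 2 in A1 (Stat3 and Tyk2 in each) and 0 in A2. DESeq2 called 1 gene in Lkb1-/- and 1 in A1, Tyk2 in both, and 0 in wild type and A2. Leaving out wild-type library 1 of the IL-1β group brought Stat2 past the threshold (0.89, edgeR adjusted p = 0.031), and leaving out untreated A2 library 1 did so for Stat3 of A2 (-0.53, 0.028). In each of these fits library 1 of the other condition stayed in, so the groups no longer matched by number.

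Libraries of the same number deviated together, so the responses were also taken within numbers. Stat3 was lower with IL-1β in all 12 pairs. Its log2 differences for libraries 1, 2 and 3 were -0.16, -0.01 and -0.14 in wild type, -0.68, -0.40 and -0.43 in Lkb1-/-, -0.44, -0.45 and -0.51 in A1 and -0.20, -0.45 and -0.33 in A2. The wild-type pairs were the closest to 0. Without pairing, the fitted responses were -0.10 ± 0.18, -0.49 ± 0.18, -0.47 ± 0.18 and -0.34 ± 0.18 (edgeR adjusted p = 0.92, 0.15, 0.27 and 0.33). With the library number as a block, Stat3 was called lower in Lkb1-/- (-0.50, adjusted p = 0.00017), A1 (-0.46, 0.00084) and A2 (-0.33, 0.0069) and not in wild type (-0.11, 0.52). Without the libraries numbered 1, and with no pairing, the same 3 were called (-0.41, -0.48 and -0.38, adjusted p = 0.00014, 0.00012 and 0.00021).

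Tyk2 and Jak2 were higher in most pairs. Tyk2 differed by 0.24, 0.24 and 0.27 between libraries of the same number in Lkb1-/- and by 0.31, 0.27 and 0.30 in A1, while wild type had 0.07, 0.06 and 0.13 and A2 0.19, -0.05 and 0.06. With the block, Tyk2 was called in Lkb1-/- (0.25, edgeR adjusted p = 0.013) and A1 (0.30, 0.0049). Jak2 was called in Lkb1-/- (0.29, 0.0042), where its pairs differed by 0.11, 0.45 and 0.32. These calls make 3 of 8 genes in Lkb1-/- (14.8% of all genes in that fit), 2 in A1 (9.61%), 1 in A2 (17.9%) and 0 in wild type (9.30%), where Stat2 had an adjusted p of 0.065 and Stat5a 0.080 and no gene passed.

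A block for each genotype and number, which compares only libraries of one genotype and number, gave smaller errors. In wild type it called Stat2, higher by 0.59 (edgeR adjusted p = 7.5e-08, pairs 0.43, 0.56 and 0.74), and Stat5a, higher by 0.29 (0.00055, pairs 0.28, 0.42 and 0.15), 2 of 8 against 16.1% of all genes. In Lkb1-/- it called 3 (22.6%), in A1 3 (16.3%) and in A2 2 (26.0%). The added genes were Stat5b in A1 (-0.18, 0.036) and in A2 (-0.19, 0.014). Stat6 and Jak1 were called in no genotype in either of the fits with a block; the Jak1 pairs ranged from -0.19 to 0.08.

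**Figure D5:**
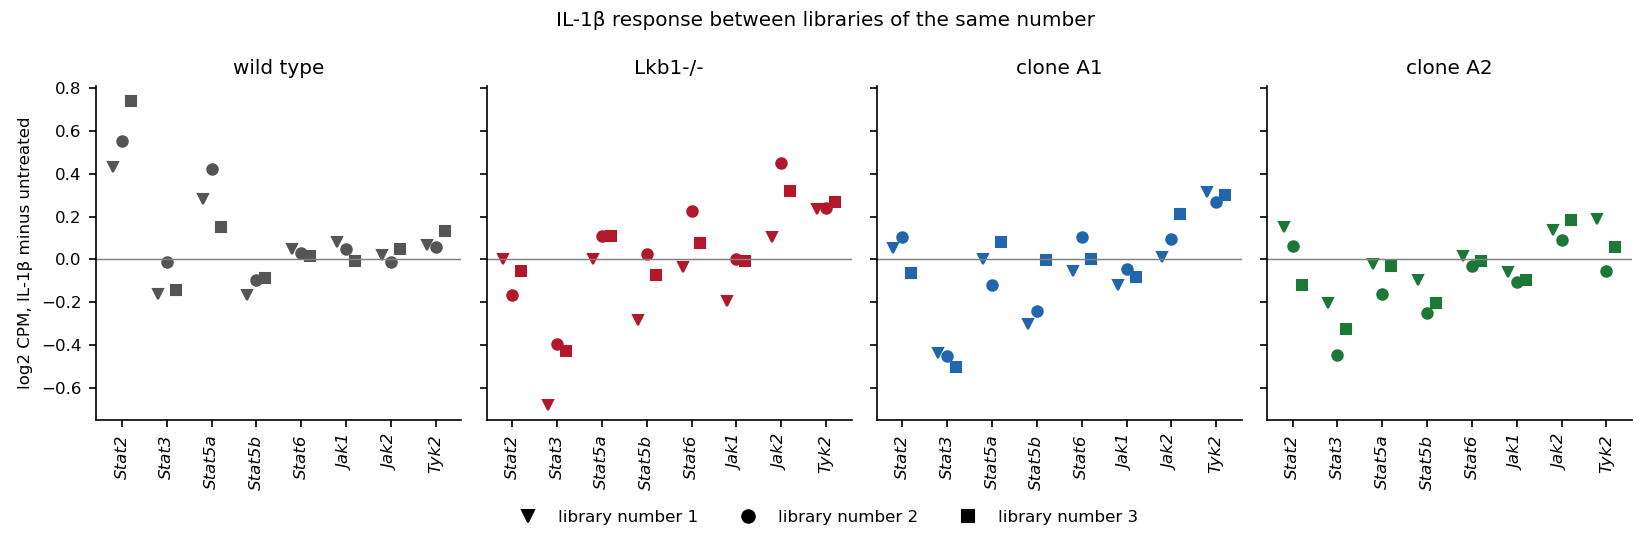
Log2 CPM with IL-1β minus untreated for libraries of the same number, in each genotype; the marker shape is the library number and the line at 0 is no difference. Stat3 lies below 0 in all 12 pairs, and Stat2 is above 0.4 only in the 3 wild-type pairs.

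Whether the responses themselves differed between genotypes was tested as a difference of differences. Fitted without pairing, 0 of 8 genes differed between Lkb1-/- and wild type (0.245% of all genes, 0.137% higher and 0.108% lower), 0 between A1 and Lkb1-/- (0.0285%) and 0 between A2 and Lkb1-/- (0%). In edgeR 0 of these had an unadjusted p under 0.05, and DESeq2 called 0. Without a filter on low counts edgeR called Stat2 between Lkb1-/- and wild type (-0.66, adjusted p = 0.00024). With 1 block per number over all genotypes it was again 0 of 8 in edgeR for Lkb1-/- against wild type (1.77% of all genes), with adjusted p = 0.36 for Stat2, 0.11 for Stat3 and 0.21 for Jak2. With a block for each genotype and number, 3 of 8 differed between Lkb1-/- and wild type (5.72% of all genes). The responses of Stat2 (-0.66, edgeR adjusted p = 1.2e-05) and Stat3 (-0.39, 0.0011) were lower in Lkb1-/- and that of Jak2 was higher (0.27, 0.024). Between each clone and Lkb1-/- 0 of 8 differed in that fit too (1.52% and 1.04%). The Stat3 response of A1 exceeded that of Lkb1-/- by 0.02 with a 95% interval of -0.47 to 0.51 without pairing, and that of A2 by 0.15 (-0.34 to 0.63).

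The other genes of the pathway were read against the share of all genes called in the same contrast, which for untreated Lkb1-/- against wild type was 30.1% higher and 25.8% lower. Of 29 ligand genes 12 could be tested, and 7 were higher and 2 lower in untreated Lkb1-/- than in wild type (55.9% of all genes were called). The median log2 fold change was 0.99, against 0.04 over all genes. Il7 was higher by 4.53, Il6 by 3.96 and Il11 by 3.34, the last 2 being ligands that signal through gp130 to STAT3. Il6 held 0.121 ± 0.0473 CPM in untreated wild type and 1.89 ± 0.411 in Lkb1-/-, and with IL-1β 3.72 ± 1.07 against 118 ± 8.39. In both clones Il6 and Il11 were lower than in Lkb1-/- with IL-1β, with log2 differences of -4.33 and -3.20 in A1 and -2.89 and -3.75 in A2 (edgeR adjusted p at most 2.4e-08). With IL-1β the A1 ligands were 2 higher and 4 lower (19.4% and 17.3% of all genes), and the A2 ligands 2 higher and 6 lower (17.1% and 15.8%).

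Of 28 receptor genes 20 were tested, with 11 higher and 5 lower in untreated Lkb1-/- (30.1% and 25.8% of all genes). The receptors for erythropoietin (Epor, 3.22) and oncostatin M (Osmr, 2.96) were higher. Osmr went from 28.6 ± 2.82 to 223 ± 11.6 CPM. The growth hormone receptor Ghr was lower (-1.34), at 53.7 ± 3.51 against 21.3 ± 2.04 CPM. In A1 with IL-1β 10 receptors were lower and 4 higher than in Lkb1-/- (17.3% and 19.4% of all genes), with the interferon receptor genes Ifnar2 (-0.63) and Ifnar1 (-0.57) among the lower ones. In A2 there were 5 higher and 1 lower (17.1% and 15.8%), and Lifr, the receptor for leukaemia inhibitory factor, was higher by 1.13. IL-1β raised 5 of the 20 in wild type and lowered 0 (1.53% and 0.731% of all genes), and raised 5 and lowered 1 in Lkb1-/- (2.65% and 2.09%), where Ifnar2 was higher by 1.02.

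Among 18 tested inhibitors of the pathway 3 were higher and 7 lower in untreated Lkb1-/-, a share near the 55.9% of all genes called (30.1% higher and 25.8% lower). Socs2, a STAT5-induced inhibitor of growth hormone signals, fell by 5.87 on the log2 scale, from 35.4 ± 0.875 to 0.604 ± 0.111 CPM. Socs3, the STAT3-induced inhibitor, rose by 1.22. Socs2 was higher than Lkb1-/- in A2 by 2.63 untreated and in A1 by 1.33, and it reached 3.75 ± 1.23 and 1.52 ± 0.298 CPM, so both stayed far below wild type. Of the 9 partner and adaptor genes 3 were higher and 2 lower, again near the 55.9% of all genes. Nmi, an interferon-inducible STAT interactor, was higher by 1.55. With IL-1β Irf9, the DNA-binding partner of STAT2, was lower in Lkb1-/- than in wild type, with a log2 difference of -1.19 ± 0.29 (edgeR adjusted p = 0.0014). Its wild-type libraries spread from 30.6 to 72.9 CPM and those of Lkb1-/- from 20.4 to 22.5. Irf9 is also 1 of the 19 interferon targets, for all of which wild-type library 3 was the highest with IL-1β.

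Of 16 reported targets of STAT3, STAT5 and STAT6, 9 were higher and 5 lower in untreated Lkb1-/- (30.1% and 25.8% of all genes), with a median of 0.58 against 0.04 over all genes. Cebpb (2.0), Bcl3 (1.31) and Socs3 were among the higher and Socs2, Ccnd1 (-1.56) and Myc (-0.89) among the lower ones. With IL-1β 9 of the 16 were lower and 3 higher in A1 than in Lkb1-/- (17.3% and 19.4% of all genes), and 6 were lower and 3 higher in A2 (15.8% and 17.1%). Cebpb (-0.97), Pim1 (-0.94) and Junb (-0.78) were lower in A1, and the cyclin gene Ccnd1 (-1.17) and Timp1 (-0.81) in A2. IL-1β itself raised 5 of the 16 in wild type and 3 in Lkb1-/- (1.53% and 2.65% of all genes), with Cebpd higher by 2.91 and 2.56. These genes answer to many other factors besides STAT proteins.

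The genes whose log2 CPM profiles over the 24 libraries were most like those of the members came from 11711 genes with a mean log2 CPM above 1. The measure was the root mean square difference of profiles centred on their own means. Arid1b (0.0886) was nearest to Stat3, Mitd1 (0.172) and Helz2 (0.221) to Stat2, Ctdsp2 (0.126) to Stat5b, Ift122 (0.168) to Stat5a and Mapre1 (0.0663) to Stat6. Among the kinases Ecpas (0.0814) was nearest to Jak1, Gpam (0.13) to Jak2 and Commd4 (0.109) to Tyk2. The members' own profiles had standard deviations of 0.158 (Stat6) to 0.502 (Stat5b) log2 units. The profiles share libraries and depth, and the distances are a description with no test.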

How the data were processed

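Total RNA of the 24 MEF samples was sequenced as read pairs. The authors trimmed reads with Trim Galore 0.6.0, aligned them to mm10 (GRCm38) with STAR 2.7.8a and deposited counts per gene for each strand setting, not normalised. The labels and the published methods name different library kits, so the kit is not settled here. Second-strand counts were used, and the 4 lines that name no gene were left out (26.7 to 34.4% of pairs). Gene symbols and lengths came from GENCODE M21, which matched 55144 of 55471 identifiers.

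Counts were fitted with edgeR 4.0.16 (R 4.3.3; quasi-likelihood F test in its older form, TMM scaling with factors 0.922 to 1.09, filterByExpr, 17522 genes kept). All 24 libraries entered 1 fit with a coefficient per genotype and treatment, 19 contrasts were drawn, and p-values were Benjamini-Hochberg adjusted over all tested genes with calls at 0.05. The typical biological coefficient of variation was 12.9%. CPM used TMM-scaled library sizes; intervals are 1.96 SE wide on each side and cover the spread between libraries. The edgeR fit was tried on simulated counts of independent libraries with a single dispersion for all genes. The simulation held no effect of library number, so it does not check the tests against such an effect. Groups, library numbers and treatment came from the sample titles.

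Same-numbered libraries of a contrast were taken as paired where each of their 3 correlations of deviations from the group means was over 0.1. This held for the 4 IL-1β responses, their differences, Lkb1-/- against wild type with IL-1β, A1 against Lkb1-/- with IL-1β, A2 against Lkb1-/- in both conditions and A2 against A1 with IL-1β. Same-numbered pairs correlated at 0.0355 to 0.589 (median 0.222) and others at a median of -0.115. No 2 libraries of a group agreed within sampling noise (chi-square per degree of freedom at least 7.42).

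Alternatives were unstranded counts, DESeq2 1.42.0 and its size factors, upper quartile scaling, other filters, the newer quasi-likelihood form, blocks by number, single contrasts and leaving out libraries. The members and gene lists were chosen with earlier results of these data known. All members were named throughout; from each list, called genes with the largest fold changes and mean log2 CPM above 1 could be named, up to 3 in each direction. Columns of first-strand counts were not used, and counts of both strands only as an alternative.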

Additional observations from a re-analysis of the deposited data

Results flagged for a closer look

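The IL-1β response of 3 genes differed between Lkb1-/- and wild type by a test of the difference itself, in the edgeR fit with a block for each genotype and library number. The Stat2 response was lower in Lkb1-/- by 0.66 on the log2 scale (value -0.66, adjusted p = 1.16e-05), with wild-type pairs at 0.43, 0.56 and 0.74 and Lkb1-/- pairs at 0.00, -0.17 and -0.05. The Stat3 response differed by -0.395 (adjusted p = 0.00106), and the Jak2 response by 0.275 (0.0235). Without pairing the same differences were -0.69, -0.38 and 0.29, and the lowest adjusted p in edgeR with the filter on low counts was 0.91. Without that filter Stat2 was called (-0.66, adjusted p = 0.00024). When wild-type library 3 of the IL-1β group was left out, the unpaired Stat2 difference was -0.21. Untreated wild-type library 3, also the highest of its group for Stat2, stayed in that fit. The value therefore does not show whether the paired difference rests on library 3. With 1 block per number over all genotypes the differences of Stat2, Stat3 and Jak2 were -0.68, -0.39 and 0.27 (adjusted p = 0.36, 0.11 and 0.21). Without the libraries numbered 1, Jak2 alone passed (0.36, adjusted p = 0.049). No formal test for a single outlying library was run within the groups of 3.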

How the results depend on the processing

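Of the 52 gene and contrast pairs called, all 832 values under the alternatives kept their sign and 781 kept an adjusted p under 0.05. Across the 19 contrasts, 95 pairs were called in at least 1 fit and 76 in none, and some of the latter changed sign in some fit. These 171 pairs include those of Stat4, which entered only the fit without a filter on low counts. Without a filter on low counts, where 36796 genes were tested, the number of members called was 1 in the wild-type, A1 and A2 IL-1β responses (2.59%, 2.47% and 4.47% of all genes), 2 in that of Lkb1-/- (3.88%), 1 for Lkb1-/- minus wild-type responses (0.943%), and 5 for A2 against Lkb1-/- with IL-1β and A2 against A1 untreated (15.3% and 15.5%). The A1 response had 1 call with upper quartile scaling (2.85%), with at least 10 counts in every library (3.03%), in a fit of its own groups (3%) and with DESeq2 (3.27%), which also called 1 in Lkb1-/- (6.31%). With a replicate block the counts were 3 in Lkb1-/-, 2 in A1, 1 in A2, and 5 for A2 against Lkb1-/- with IL-1β and A2 against A1 untreated (46.6% and 46.3% of all genes), of which the numbers did not pair the samples in the second. With a replicate block within each genotype the responses had 2, 3, 3 and 2 calls and the Lkb1-/- minus wild-type difference 3. Where the numbers paired the samples, the block changed no call other than those given with the results. Without the libraries numbered 1, an alternative chosen after seeing the data, the counts were 7 for untreated Lkb1-/- against wild type, 5 for A2 against Lkb1-/- with IL-1β, 5 for A2 against A1 untreated, 2, 1 and 2 for the Lkb1-/-, A1 and A2 responses (8.79%, 5.15% and 14.6% of all genes) and 1 for the Lkb1-/- minus wild-type difference (0.842%).

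Leaving out single libraries gave ranges of 0 to 1 in the wild-type and A2 responses, 2 to 6 for A2 against Lkb1-/- untreated, and 1 to 4 and 2 to 4 for A2 against A1 untreated and with IL-1β. The causes were not tested. Of the uncalled values, Stat3 in A2 against Lkb1-/- untreated ranged from -0.0524 to 0.256 over these fits, and Stat2 against untreated wild type from -0.477 to 0.037 in A1 and from -0.484 to 0.035 in A2. With at most 4 counts in a library, Stat4 could not be compared at this depth. Duplicate reads and the kit could not be re-examined from counts.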

Other observations

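Stat4 transcripts were at the edge of detection. The count was 0 in all 6 wild-type libraries and 0 to 4 in the other 18. Of its 50-base transcript words 21.7% also occur in the overlapping gene model Gm28177. No comparison was drawn from these counts.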
